A study of Rattus norvegicus with 6 samples.

Results

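The miR-219, miR-338 and miR-138 families are described here in the lens capsules of control and Na2SeO3-treated rats. The members are the names in the count table that begin with rno-miR-219a, rno-miR-219b, rno-miR-338 or rno-miR-138, with every copy and every arm, and 9 of the 910 names in the table matched. The families were picked with the difference between the groups in miR-219a-2-3p already known, so all values of the members in that contrast are a description without a test. Small RNA was sequenced from the capsular membrane of 6 lenses, 1 library per rat. The 3 control rats were Sprague-Dawley pups injected under the skin of the nape with saline, and the 3 rats of the Na2SeO3 group received sodium selenite at 20 μmol/kg in the same way on days 3, 5 and 7. The methods give the age of the pups used for the model as 8 days, and the lenses were taken on day 15 of the experiment. Whether the injection days were counted from birth or from the start of the experiment is not stated. Selenite given to young rats is a common way to cloud the lens within days, and no gene was altered in either group.

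MiR-219, miR-338 and miR-138 are best known from oligodendrocytes, the cells that form myelin in the central nervous system. The first 2 families increase when precursor cells stop dividing and mature, where they repress genes that hold the precursor state, such as Pdgfra, Sox6 and Hes5, and miR-138 takes part in the same step. A microRNA is cut from a hairpin as a pair of strands, the 5p arm and the 3p arm, and usually one of them is kept. Its seed, bases 2 to 8, does most of the pairing with target mRNAs. The guide arm of miR-219a, the strand usually kept, is taken to be miR-219a-5p, and miR-219a-2-3p has a different seed. No target of either arm was examined here. The lens holds epithelial cells and fibre cells, and glia are not among its resident cells.

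The prefix rno of rat names is given where a member is introduced and left out elsewhere. All 9 members had a mature sequence in RefSeq (assembly GRCr8). They are shown because the copies of miR-219a share one arm and differ in the other, with the seed in capitals, 5′ to 3′:
rno-miR-219a-5p: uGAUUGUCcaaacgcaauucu
rno-miR-219a-1-3p: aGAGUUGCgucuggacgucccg
rno-miR-219a-2-3p: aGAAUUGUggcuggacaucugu
rno-miR-219b: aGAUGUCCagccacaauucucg
rno-miR-338-5p: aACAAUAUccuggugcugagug
rno-miR-338-3p: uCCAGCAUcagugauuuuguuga
rno-miR-138-5p: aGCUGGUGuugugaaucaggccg
rno-miR-138-1-3p: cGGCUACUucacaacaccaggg
rno-miR-138-2-3p: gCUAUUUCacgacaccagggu
The 9 seeds were all different, and no other name among the 693 rat mature names of the RefSeq table carried one of them. The members are therefore grouped by hairpin and not by seed. Between miR-219a-2-3p and miR-219a-1-3p, 7 of 22 positions differed, counted from 1 at the 5′ end of miR-219a-2-3p. A4G and U8C lie in the seed, and the others were G10U, A17G, U20C, G21C and U22G. The reads of the 3p arms can thus be told apart.

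The hairpins of the 2 miR-219a copies and of miR-338 are shown with the counted arms in capitals, to place the shared arm beside the copy-specific ones:
Mir219-2: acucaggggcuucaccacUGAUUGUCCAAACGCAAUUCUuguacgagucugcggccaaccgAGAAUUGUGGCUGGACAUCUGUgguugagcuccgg
Mir219a1: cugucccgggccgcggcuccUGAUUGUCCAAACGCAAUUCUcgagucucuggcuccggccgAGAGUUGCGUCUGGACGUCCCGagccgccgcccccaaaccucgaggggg
Mir338: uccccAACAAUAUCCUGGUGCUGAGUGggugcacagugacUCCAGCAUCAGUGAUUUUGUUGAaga
The 5p arm of miR-219a stands in both hairpins, from base 19 to 39 of Mir219-2 and from base 21 to 41 of Mir219a1, so its reads cannot be assigned to a copy. In the same way miR-138-5p stands in the hairpins of Mir138-1 and Mir138-2. In GRCr8, Mir219-2 overlaps the protein-coding gene Cercam and Mir338 overlaps Aatk, a kinase gene of the nervous system. Mir219a1 lies between Hsd17b8 and Ring1 with no gene over it, and Mir138-2 overlaps Slc12a3. The gene of miR-219b, Mir2964, covers the same place as Mir219-2, and 20 consecutive bases of miR-219b are the reverse complement of miR-219a-2-3p.

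Totals of counted reads differed between the groups, with 1806596 to 2829903 in the control libraries and 663096 to 968151 in the Na2SeO3 libraries. The raw reads per library reported by the study overlapped between the groups. Each Na2SeO3 library thus had a smaller share of its raw reads counted as a miRNA than any control library. Levels are therefore given as CPM (reads relative to the scaled library total, with TMM scaling, a method that assumes most miRNAs to be equal between libraries), and 3 counts correspond to 1.04 to 1.94 CPM in the control libraries and 2.72 to 4.36 CPM in the Na2SeO3 libraries. These limits cover counting error only. MiRNAs taken to mark the lens (miR-184, miR-204 and miR-211, 5 names) were present in all libraries, with a summed level of 93477 to 108496 CPM in the control group and 48064 to 60330 CPM in the Na2SeO3 group. Most of this difference lay in miR-184, at 81388 ± 6580 against 37222 ± 3191 CPM (SD, n = 3 each), and the groups overlapped in the 4 names of miR-204 and miR-211. In a tissue sample, fewer cells of a type and less RNA per cell cannot be told apart. The members made up little of the libraries, between 147 and 266 counts per control library and between 111 and 202 per Na2SeO3 library in total.

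The families were picked for rno-miR-219a-2-3p, which stood far above its control level in the Na2SeO3 group. It was 1 of 4 members that held enough reads to be fitted. Its reads were counted 7, 13 and 5 times in the control libraries, in the order 1 to 3, against 59, 81 and 69 times in the Na2SeO3 libraries. As levels these were 2.42, 6.72 and 3.23 CPM in the control group and 85.8, 73.5 and 75.8 CPM in the Na2SeO3 group. Every Na2SeO3 library lay above every control library, in counts as well as in CPM, although the Na2SeO3 libraries had the lower totals of counted reads. Of all names tested, 25.2% were separated in this direction in CPM. The mean level was 4.12 ± 2.28 CPM in control rats against 78.4 ± 6.57 CPM in Na2SeO3 rats (SD, n = 3 each), a fitted 19.2-fold difference (log2 fold change 4.26, standard error 0.32). By mean level it ranked 375th of the 910 names in the control group and 196th in the Na2SeO3 group, and its log2 fold change was second of the 341 names tested. The study's methods name edgeR and ask for an adjusted p-value under 0.05 beside a log2 fold change beyond 1 in size. The quasi-likelihood test of edgeR was chosen here. Over all names tested 16.4% met these thresholds, 11.4% as higher and 4.99% as lower in the Na2SeO3 group. MiR-219a-2-3p lay past them, which the choice of the families had fixed, and it had enough reads to be fitted only through the Na2SeO3 group, so nothing is read from this. With TMM scaling and all 6 libraries the other 3 fitted members did not meet them in edgeR. With the raw reads of the libraries as the scale its log2 fold change was 3.15, so it stayed higher there too.

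**Figure D1:**
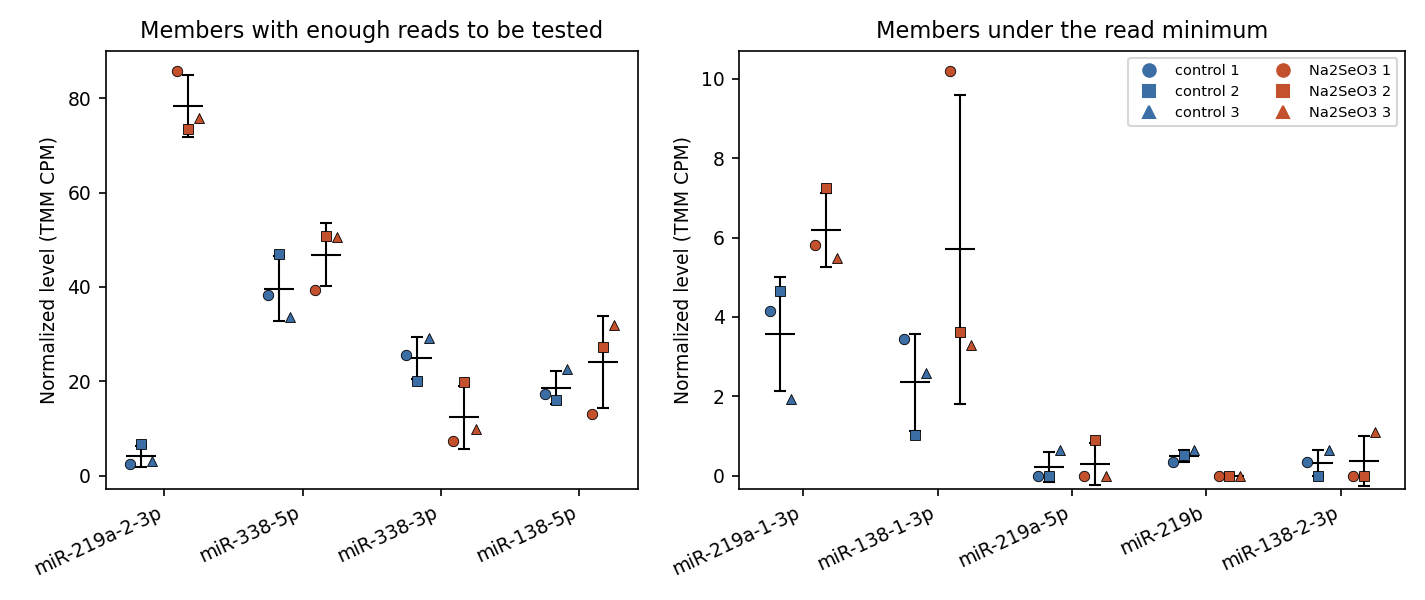
Normalized level (CPM after TMM scaling) of the 9 members in each library. Points are libraries, horizontal lines are group means and bars are the SD (n = 3). MiR-219a-2-3p lies at 73.5 to 85.8 CPM in the Na2SeO3 group and at 2.42 to 6.72 CPM in the control group, whereas the groups meet or overlap in miR-338-5p and miR-138-5p.

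The 3p arm of the other copy, rno-miR-219a-1-3p, did not share this. It was counted 12, 9 and 3 times in the control libraries, in the order 1 to 3, against 4, 8 and 5 times in the Na2SeO3 libraries. Its levels were 3.58 ± 1.44 CPM (SD, n = 3) and 6.19 ± 0.94 CPM (SD, n = 3), and the Na2SeO3 libraries lay just above the control libraries, at 5.49 to 7.26 against 1.94 to 4.65 CPM. In counts the groups overlapped. Groups that did not overlap in CPM, in either direction, were found in 46.3% of all names tested, and miR-219a-1-3p was itself too low to be tested.

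The shared arm, rno-miR-219a-5p, was almost absent. It had 1 read in control library 3, 1 read in Na2SeO3 library 2 and none in the other 4 libraries, 2 of 9221212 counts in all. A count of 0 allows a level of up to 1.04 to 1.55 CPM in the control libraries without a read and of up to 3.30 to 4.36 CPM in such Na2SeO3 libraries. No difference of this arm between the groups was detectable. The antisense name miR-219b had 1 read in each control library and none in the Na2SeO3 libraries, which is below the same limit.

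Within a library the arms can be compared without any scaling. Of the reads of both copy-specific 3p arms together, miR-219a-2-3p took 36.8% (7 of 19; exact 95% Clopper-Pearson interval 16.3% to 61.6%) in control library 1. It took 59.1% (13 of 22; 36.4% to 79.3%) in control library 2 and 62.5% (5 of 8; 24.5% to 91.5%) in control library 3. In the Na2SeO3 group the shares were 93.7% (59 of 63; 84.5% to 98.2%), 91.0% (81 of 89; 83.1% to 96.0%) and 93.2% (69 of 74; 84.9% to 97.8%). The interval of each control library included equal shares of the copies, and nearly all 3p reads of the Na2SeO3 group came from the Mir219-2 hairpin. The mean share was 52.8% ± 13.9 in control rats against 92.6% ± 1.42 in Na2SeO3 rats (SD, n = 3 each), and the ranges did not overlap, although the interval of control library 3 reached into those of the Na2SeO3 group.

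Against the shared 5p arm, with 0.5 added to each count, miR-219a-2-3p stood at a log2 ratio of 3.51 ± 1.48 in control rats against 6.59 ± 0.73 in Na2SeO3 rats (SD, n = 3 each). The same log2 ratio of miR-219a-1-3p was 3.37 ± 1.87 (SD, n = 3) and 3.04 ± 0.49 (SD, n = 3), and its libraries overlapped between the groups. These ratios rest on 0 or 1 read of the 5p arm and are lower in size with a larger added count. Of 34 names found in at least 2 rat hairpins, 26 had at least 10 reads over the 6 libraries. The other 8, miR-219a-5p among them, had fewer. MiR-138-5p, which also stands in 2 hairpins, had 184. How reads that match several hairpins were counted is not stated, and its part in the low count of miR-219a-5p was not tested.

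**Figure D2:**
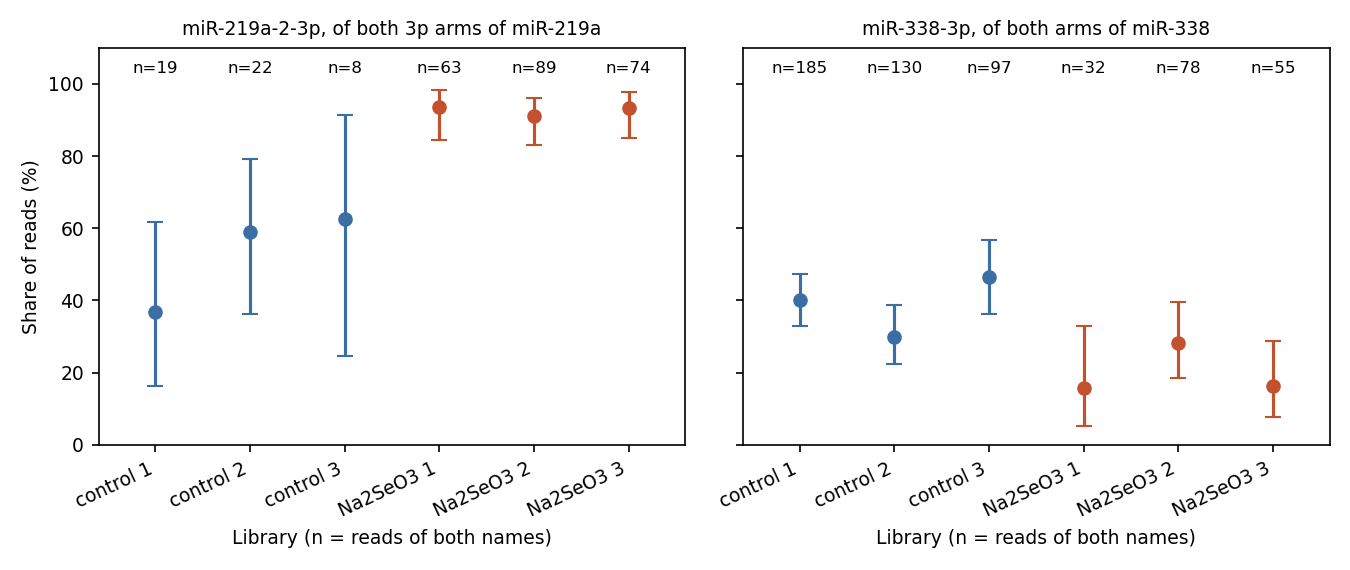
Share of reads (%) taken by miR-219a-2-3p among both 3p arms of miR-219a (left) and by miR-338-3p among both arms of miR-338 (right), per library. Bars are exact 95% binomial intervals and n is the number of reads of both names. The Na2SeO3 libraries lie at 91.0% to 93.7% on the left and at 15.6% to 28.2% on the right.

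MiR-338, which works beside miR-219 in maturing oligodendrocytes, did not follow miR-219a-2-3p. The 3p arm, rno-miR-338-3p, the strand usually named as active there, was counted 74, 39 and 45 times in the control libraries, in the order 1 to 3, against 5, 22 and 9 times in the Na2SeO3 libraries. As levels these were 25.5, 20.2 and 29.1 CPM in the control group and 7.27, 20.0 and 9.89 CPM in the Na2SeO3 group. Every Na2SeO3 library lay below every control library, as in 21.1% of all names tested, but Na2SeO3 library 2 came within a fraction of 1 CPM of control library 2. Its mean level was 24.9 ± 4.50 CPM in control rats against 12.4 ± 6.69 CPM in Na2SeO3 rats (SD, n = 3 each). The log2 fold change was -0.93 with a standard error of 0.35, the opposite sign to miR-219a-2-3p. In the edgeR fit over the 341 names with TMM scaling and all 6 libraries it met neither threshold. It met both without Na2SeO3 library 2, where the log2 fold change was -1.51, with upper-quartile scaling (-1.03) and with raw reads as the scale (-2.07).

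The 5p arm of miR-338 was the more abundant arm, with 111, 91 and 52 counts in the control libraries, in the order 1 to 3, against 27, 56 and 46 in the Na2SeO3 libraries. Its level was 39.7 ± 6.80 CPM in control rats against 46.9 ± 6.58 CPM in Na2SeO3 rats (SD, n = 3 each), and the groups overlapped (log2 fold change 0.25, standard error 0.22). With raw reads as the scale its log2 fold change turned to -0.90. Both arms come from 1 hairpin, so their balance within a library needs no scaling. Of the reads of both arms, miR-338-3p took 74 of 185, 39 of 130 and 45 of 97 in the control libraries, in the order 1 to 3. In the Na2SeO3 libraries it took 5 of 32 (15.6%), 22 of 78 (28.2%) and 9 of 55 (16.4%). The mean share was 38.8% ± 8.26 in control rats against 20.1% ± 7.06 in Na2SeO3 rats (SD, n = 3 each). The exact 95% interval of Na2SeO3 library 2 ran from 18.6% to 39.5% and held the share of control library 2. In GRCr8 the gene Mir3065 overlaps Mir338, and its names had 3 reads in total, all in control library 3.

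**Figure D3:**
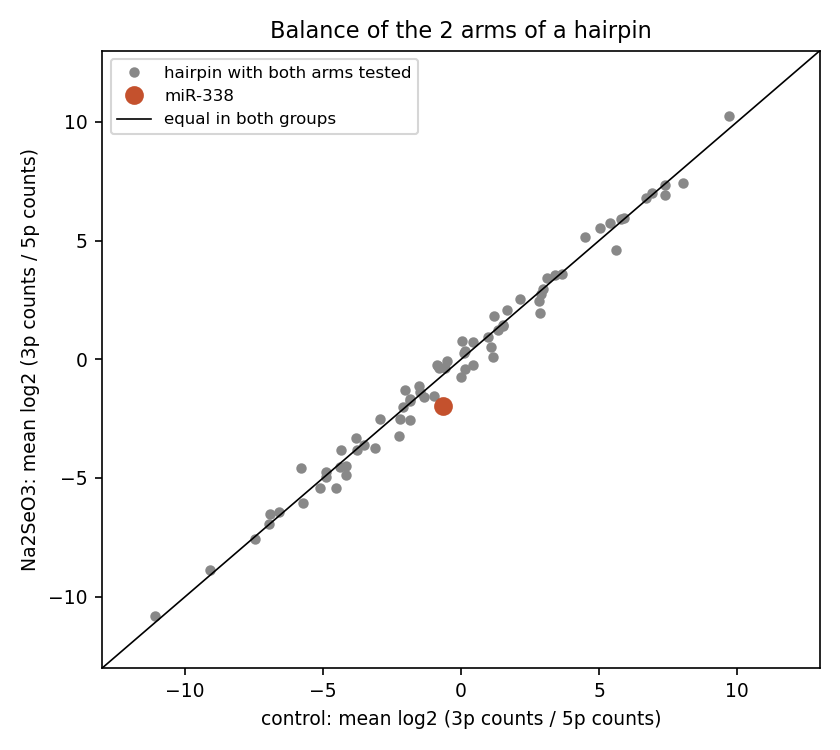
Mean log2 ratio of 3p to 5p counts per hairpin in the control group (horizontal) and the Na2SeO3 group (vertical), for 73 hairpins with both arms tested. Points on the line have the same balance in both groups, and miR-338 (large point) lies below it, at -0.67 in the control group and -1.98 in the Na2SeO3 group.

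MiR-138 comes from a pair of hairpins with the same 5p arm. The shared rno-miR-138-5p was counted 50, 31 and 35 times in the control libraries, in the order 1 to 3, against 9, 30 and 29 times in the Na2SeO3 libraries. Its level was 18.6 ± 3.51 CPM in control rats against 24.1 ± 9.78 CPM in Na2SeO3 rats (SD, n = 3 each), and its fitted log2 difference was 0.41 ± 0.32 (SE), which turned to -0.73 with raw reads as the scale. The groups overlapped, since Na2SeO3 library 1 was the lowest of all 6 at 13.1 CPM and Na2SeO3 library 3 the highest at 31.9 CPM. The copy-specific arm miR-138-1-3p had 10, 2 and 4 reads in the control group and 7, 4 and 3 in the Na2SeO3 group, and miR-138-2-3p had at most 1 read in any library. The copy behind most of the miR-138-5p reads cannot be named from so few 3p reads, although miR-138-1-3p had 30 reads in all and miR-138-2-3p had 3.

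The order of the members by mean level changed between the groups. In the control group it ran miR-338-5p, miR-338-3p, miR-138-5p, miR-219a-2-3p, miR-219a-1-3p and miR-138-1-3p, followed by the 3 names with at most 1 read per library. The libraries of miR-338-3p and miR-138-5p overlapped there, as did those of miR-219a-2-3p, miR-219a-1-3p and miR-138-1-3p in turn. In the Na2SeO3 group miR-219a-2-3p came first, above miR-338-5p without overlap, and miR-138-5p stood above miR-338-3p with overlap. All mature sequences are 21 to 23 bases long, so levels per name and per length rank alike, but capture efficiency can differ between sequences and was not measured. Together the 9 members took 94.3 ± 2.24 CPM in control rats against 174 ± 11.3 CPM in Na2SeO3 rats (SD, n = 3 each). Without miR-219a-2-3p the sums were 90.2 ± 1.40 and 95.9 ± 17.9 CPM (SD, n = 3 each) and overlapped, and the share of miR-219a-2-3p in the counts of all members was 4.34% ± 2.33 in control rats against 45.3% ± 6.93 in Na2SeO3 rats (SD, n = 3 each).

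Profiles over the 6 libraries were compared by the root mean square difference of log2 CPM after centring each profile, a distance that grows with the difference between the groups. MiR-219a-2-3p, picked for a large difference, was 1.88 from miR-338-5p, 1.93 from miR-138-5p and 2.57 from miR-338-3p. The closest pair was miR-138-5p and miR-338-5p, at 0.37, and miR-338-3p was 0.74 and 0.76 from these. Outside the families, the names with the profile most like miR-219a-2-3p were tca-miR-3876-5p at 0.63, which is a beetle name with no read in the control group, miR-130b-5p at 0.92 and miR-493-5p at 0.99. The nearest names to miR-338-3p were miR-145-3p (0.27), miR-29c-3p (0.29) and miR-205 (0.29). Those nearest to miR-138-5p were miR-142-3p (0.15), miR-9a-3p and miR-340-5p (0.23 each), and those nearest to miR-338-5p were miR-423-5p, miR-181a-1-3p and let-7d-5p (0.11 each). The likeness rests on 6 libraries that also differ in their total of counted reads.

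Among other miRNAs with a known part in the oligodendrocyte lineage, miR-7b was lower in the Na2SeO3 group. Of 8 listed names 7 were tested, and 0 met the thresholds as higher and 1 as lower, against 11.4% and 4.99% of all names, so that with 7 names the counts are near those shares. The list had a median log2 fold change of -0.14 against 0.08 over all names tested. At an unadjusted p under 0.05 in edgeR 0 were higher and 3 were lower, against 25.5% and 18.8% of all names. DESeq2 called 0 as higher and 1 as lower, against 8.8% and 4.69% of all names. With raw reads as the scale, which moved the median of all names to -1.07, 6 were called lower, as were 51.6% of all names. MiR-7b was at 546 ± 84.1 CPM in control rats against 212 ± 17.7 CPM in Na2SeO3 rats (SD, n = 3 each), where the fitted log2 fold change was -1.36 ± 0.17 (SE; Benjamini-Hochberg adjusted p = 8.47e-05 in edgeR). Its near-identical relative miR-7a-5p, which limits Pax6 in the forebrain, was at 12831 ± 3062 CPM in control rats against 7939 ± 267 CPM in Na2SeO3 rats (SD, n = 3 each). Its log2 difference was -0.69 (adjusted p = 0.00815, edgeR), short of the fold change threshold. MiR-145-5p, a miRNA of smooth muscle that also acts in oligodendrocyte precursors, was at -0.85 (adjusted p = 0.00153, edgeR). The log2 fold changes of miR-23a-3p, miR-17-5p, miR-19b-3p and miR-32-5p lay between -0.14 and 0.23, and miR-125a-3p had too few reads to be tested. The summed level of the list was 11304 to 17735 CPM in the control group and 8920 to 9435 CPM in the Na2SeO3 group. Most of this sum was miR-7a-5p in both groups.

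Neuron-enriched miRNAs were present at high levels in both groups. Of 14 listed names 10 were tested, which are 9 separate measurements, since miR-129-1-3p and miR-129-2-3p had identical counts in all 6 libraries. Of the 9, 0 met the thresholds in edgeR or DESeq2, against 16.4% of all names in edgeR and, in DESeq2, 8.8% as higher and 4.69% as lower, and their median log2 fold change was -0.04. At an unadjusted p under 0.05 in edgeR 1 was higher and 2 were lower, against 25.5% and 18.8% of all names. With raw reads as the scale 6 of the 9 were called lower, against 51.6% of all names. MiR-9a-5p, a miRNA of neural progenitors and the retina, was at 28024 ± 3945 and 37628 ± 5990 CPM (SD, n = 3 each; log2 fold change 0.43, adjusted p = 0.0478, edgeR). MiR-124-3p, the most neuron-restricted of them, was at 3287 ± 464 and 3030 ± 799 CPM (SD, n = 3 each; log2 fold change -0.12, adjusted p = 0.709, edgeR). MiR-129-5p, at -0.44 (adjusted p = 0.0356, edgeR), and the 3p names of miR-129, both at -0.77 (adjusted p = 0.00612, edgeR), stayed short of the fold change threshold. MiR-128-3p, miR-124-5p, miR-9a-3p, miR-218a-5p and miR-383-5p had log2 fold changes of 0.06, -0.04, 0.15, -0.25 and 0.42. MiR-137-3p, miR-137-5p, miR-153-3p and miR-153-5p had at most 11 reads in a library and were not tested. The summed level of the list was 42610 to 50509 CPM in the control group and 46944 to 56463 CPM in the Na2SeO3 group. These ranges overlapped, and miR-9a-5p made up most of the sum in both groups.

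Lists for other cell types that a lens capsule preparation may hold were read in the same way. The summed level of striated muscle miRNAs was 7257 to 8803 CPM in the control group and 13496 to 14601 CPM in the Na2SeO3 group, and 1 of 6 tested met the thresholds as higher, against 11.4% of all names. At an unadjusted p under 0.05 in edgeR 4 of the 6 were higher and 1 was lower, against 25.5% and 18.8% of all names. Most of the sum was miR-1-3p and miR-206-3p, with log2 fold changes of 0.69 and 1.75, whereas miR-499-5p was at -0.49 (adjusted p = 0.068, edgeR) with the groups apart, at 760.1 ± 115 and 539.5 ± 125 CPM (SD, n = 3 each). That of erythroid miRNAs was 254 to 306 and 403 to 518 CPM, with 1 of 3 higher, miR-486 (137 ± 20.8 and 299.5 ± 86.6 CPM; SD, n = 3 each). MiR-451-5p, at 128 ± 11.6 and 133 ± 25.9 CPM (SD, n = 3 each), and miR-144-5p overlapped between the groups. Surface epithelium miRNAs were at 7361 to 7571 and 3194 to 3387 CPM, with 3 of 7 lower, and of the 5 lens miRNAs miR-184 was lower, against 4.99% of all names. At an unadjusted p under 0.05 in edgeR 6 of the 7 epithelial and 2 of the 5 lens miRNAs were lower, against 18.8% of all names, and 1 of the 3 erythroid miRNAs was higher. The sums of the myeloid list (973 to 1159 and 832 to 1014 CPM), the endothelial list (20568 to 26048 and 25181 to 30491 CPM) and the sensory cluster of miR-183, miR-96 and miR-182 (144754 to 195553 and 186156 to 195552 CPM) overlapped between the groups, and none of their members met the thresholds in edgeR or DESeq2 or had an unadjusted p under 0.05. With raw reads as the scale, 0 muscle and 0 erythroid miRNAs were called higher (1.76% of all names) and 1 of each was called lower, against 51.6% of all names. On that scale 5 of 6 myeloid, 7 of 7 epithelial, 5 of 5 lens, 1 of 3 sensory and 0 of 2 endothelial miRNAs tested were called lower. The part of muscle, erythroid, epithelial and lens RNA in the difference of miR-219a-2-3p was not tested.

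**Figure D4:**
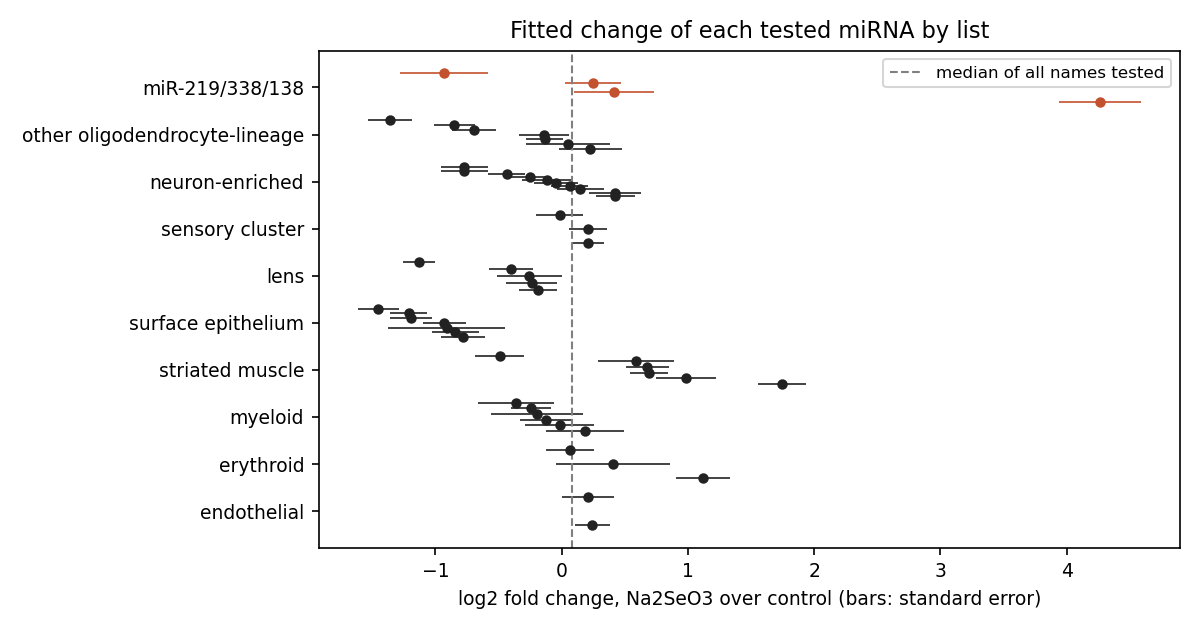
Log2 fold change (Na2SeO3 over control) with its standard error for each tested miRNA of the 3 families and of the 9 other lists. The dashed line is the median of all 341 names tested, 0.08. MiR-219a-2-3p, for which the families were picked, lies at 4.26, and miR-338-3p lies at -0.93.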

How the data were processed

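The labels and study methods describe small RNA of the lens capsular membrane from 3 control and 3 Na2SeO3 rats. After trimming (Cutadapt, Fqtrim) and FastQC checks, the authors compared reads with the Ensembl rat genome (miRDeep, HISAT2) and deposited raw read counts per miRNA name, not normalized or pooled. The genome build, tool versions and library kit are not given in the sources used here. No coordinates are printed, and sequences and gene neighbours come from RefSeq GRCr8.

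The counts were tested as deposited. Of 910 names, 725 were counted and 341 passed filterByExpr (minimum count 10), 4 of the 9 members among them. Libraries were scaled with TMM and fitted with edgeR 4.0.16 in R 4.3.3 (quasi-likelihood test, Benjamini-Hochberg adjustment over 341 names, no covariate). Each standard error is the log2 fold change divided by the root of F, and the prior count for log2 CPM was 2. DESeq2 1.42.0 served as an alternative. The fit was tested on simulated data. No 2 libraries agreed within sampling noise (chi-square at lowest 28.0 times its degrees of freedom). Counted totals were 663096 to 2829903 per library, and reads without molecular identifiers give intervals for counting error only. The members, the cell type lists and the tests were chosen with earlier results of these data known. Named were all members, the tested miRNAs of the oligodendrocyte and neuron lists and the 3 nearest profiles per tested member, and names of other species in these families, of which there were 0.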

Additional observations from a re-analysis of the deposited data

How the results depend on the processing

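The counts of members past the thresholds are a description, since miR-219a-2-3p, for which the families were picked, is in each count above 0. They were 1 to 2 with each library left out, the second being miR-338-3p without Na2SeO3 library 2. There were also 2 with upper-quartile scaling, and 0 with 10 counts required in every library, since miR-219a-2-3p could not be tested then. DEmiRNAs over all names numbered 56 (39 higher, 17 lower in the Na2SeO3 group), 118 by the adjusted p-value alone, and 45 to 62 with each library left out. Library size only gave 53 higher and 10 lower, and upper-quartile scaling 32 and 22. With raw reads as library sizes, 182 met the thresholds (6 higher, 176 lower), with 2 members, 6 oligodendrocyte-lineage and 7 neuron-enriched names (6 separate measurements) among them, and the log2 fold change turned to -0.73 for miR-138-5p and -0.90 for miR-338-5p. On that scale the median log2 fold change of all names moved from 0.08 to -1.07, and on library size only to 0.27. The log2 fold change of miR-219a-2-3p ran from 3.15 to 4.80 over 15 alternatives. In the Na2SeO3 group the log2 ratio to miR-219a-5p with 2 added to each count was 4.96 for miR-219a-2-3p and 1.71 for miR-219a-1-3p, and from summed counts 3.54 for miR-219a-1-3p. The shares of arms moved by less than 1 SD. The analysis of the miR-338 share under alternatives was added after seeing the data. With the replicate number as a block, 49 names met the thresholds, and the call of no member changed. Same-numbered libraries, which come from different rats, deviated with correlations of -0.17, -0.18 and -0.26, and no library correlated best with its own number. Members with under 10 reads in a library are limited by their low counts.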

Other observations

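Arm use was also read over all rat hairpins, with the counts of all 6 libraries added up, both groups together, and with an arm that stands in several hairpins counted in full for each. Of 176 hairpins with both arms named and at least 100 reads in all, the major arm took a median of 99.2% of the reads. In 76 hairpins the 3p arm was the major one. The Mir219-2 hairpin had 234 reads of its 3p arm, 25 in the control group and 209 in the Na2SeO3 group. With the 2 reads of miR-219a-5p counted in full, its 3p arm took 99.2% of its reads, although these 2 reads cannot be assigned to a copy. Mir338 was among the more balanced hairpins, with 33.6% of its reads from the 3p arm over both groups (mean share 38.8% in control rats and 20.1% in Na2SeO3 rats).

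The balance of arms could be followed between the groups for 73 hairpins whose arms were both tested. The log2 ratio of 3p to 5p counts, with 0.5 added, differed between the groups by a median of 0.07 (quartiles -0.32 and 0.32), and in 13 hairpins (17.8%) the libraries of the groups did not overlap. The lowest difference of the 73 was that of miR-338, at -1.31, from -0.67 ± 0.51 (SD, n = 3) in the control group to -1.98 ± 0.57 (SD, n = 3) in the Na2SeO3 group. Differences of -1.08 to -0.91 followed for miR-136, miR-342, miR-374 and miR-582. At the upper end stood miR-98 at 1.20 and miR-181c at 0.75, both without overlap of the groups. MiR-338-3p had 5 to 22 reads per Na2SeO3 library, and the difference was not tested.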
